A study of Homo sapiens with 4 samples.

Results

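The genes described here encode the proteasome: the subunits of its core and regulatory particles, its activators, its inhibitor and its assembly chaperones. They were chosen by name, as every protein-coding gene of GENCODE whose symbol begins with PSMA, PSMB, PSMC, PSMD, PSME, PSMF or PSMG, which gave 50 of 19663 genes. Of these, 2 carry the prefix without being part of the proteasome: PSMC3IP, a recombination factor, and PSME3IP1, a protein that binds PSME3. Chromatin immunoprecipitation followed by sequencing (ChIP-seq) of the transcription factor c-MYC was done in the human pancreatic ductal adenocarcinoma cell line MIA PaCa-2, an established line, after 8 h in the solvent DMSO, in the inhibitor AMG510 at 100 nM or in the MEK inhibitor trametinib at 10 nM. Each treatment had 1 library made with the c-MYC antibody, and DMSO-treated cells had 1 more made with non-specific immunoglobulin (IgG) as a control. All 4 libraries came from this 1 cell line without replicates, so every difference given here lies between libraries, without a replicate check and without a test. Peak lists of a transcription factor hold no expression markers against which the cell type could be checked.

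The proteasome degrades proteins that carry ubiquitin chains. Its core particle is a barrel of alpha and beta rings with the proteolytic sites inside, and its regulatory particle recognizes the substrate, removes the ubiquitin, unfolds the chain and feeds it into the barrel. Many subunit genes are known to be controlled together by the factor NFE2L1 through the antioxidant response element, while c-MYC binds E-boxes at a broad range of promoters of growth genes.

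The c-MYC lists held 9552 peaks for DMSO, 10378 for AMG510 and 5431 for trametinib, and the IgG list 2966. Between 22700000 and 24800000 tags (aligned reads) entered peak calling per library, as recovered from the lists. These estimates are larger than the uniquely mapped reads that the paper reports. They also differ in order, since trametinib is the highest here and the lowest in the paper. Most peaks were shallow, with a median of 10 to 13 tags at the summit, and 7 or 8 tags could make a call. Each tag counts over an extended length, read from the shortest peaks as 177 bp in DMSO c-MYC, 157 in AMG510 and 163 in trametinib. The longer extension raises the tags at DMSO summits, and the tag ratios below were not adjusted for it. A list shows only what passed the caller's limit (q = 0.05), so a promoter without a peak had no detectable enrichment at this depth and may still have been bound. A promoter peak is a peak whose summit lay at most 1 kb from a transcription start site (TSS) of any protein-coding transcript of the gene. The fold enrichment is the pileup at the summit over the background of the same library, each with 1 tag added, and where a number stands alone in parentheses behind the tags, it is this value. Coordinates are 1-based on GRCh38.

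The sequences under the peaks are shown first, because the E-box is the element that MYC recognizes. The canonical E-box CACGTG reads the same on both strands. Within 100 bp of a summit, it occurred at the promoters of PSMC4, an ATPase of the regulatory particle, and PSME3, the nuclear activator PA28 gamma. Each line below gives 30 bases of the plus strand with the E-box in capitals. At PSMC4 the E-box began 1 bp from the DMSO summit, 419 bp upstream of the TSS. At PSME3 it began 57 bp from the AMG510 summit and 14 bp from the trametinib summit, 42 bp upstream of the nearest TSS, and it lay inside the DMSO peak but beyond 100 bp from that summit.
PSMC4, chr19:39970734-39970763: ttggatcagcgcCACGTGgagaccttaccc
PSME3, chr17:42833343-42833372: ggctgcgcagcgCACGTGcacagcctcgca

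The noncanonical E-box CACGCG, or CGCGTG when read on the other strand, lay within 100 bp of the summit at another 4 promoters. These were PSMA7, an alpha subunit, PSMB10, a catalytic subunit of the immunoproteasome, and PSME1, the activator PA28 alpha, in DMSO, and PSMA8, the testis-specific alpha subunit, in AMG510. The capitals mark the noncanonical E-box on the plus strand.
PSMA7, chr20:62142939-62142968: tgcccggggcccCACGCGaggccgggcccc
PSMB10, chr16:67936016-67936045: gcccgtagataaCGCGTGtagctccatctt
PSME1, chr14:24136376-24136405: cccccaggctccCACGCGagtcgggggcag
PSMA8, chr18:26133844-26133873: ggcagcttgaggCGCGTGtggaagcgcttc

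Most peaks at proteasome promoters had no canonical E-box at their summit. It was present at 1 of 18 member peaks in DMSO (5.56%), 1 of 12 in AMG510 (8.33%) and 1 of 9 in trametinib (11.1%). Over all promoter peaks of the same lists the shares were 16.9, 14.4 and 17.3%. The noncanonical form was present at 3, 1 and 0 member peaks, against 23.3, 21.1 and 22.2% of all promoter peaks. Anywhere inside the peak, the canonical form was present at 3 of 18, 1 of 12 and 1 of 9 member peaks. Over all promoter peaks these shares were 22.76, 17.25 and 21.28%. The 3 in DMSO were at PSMC4, PSMD9 and PSME3. PSMA2, an alpha subunit, is an example of a promoter without either form. Its summits in DMSO and AMG510 lay 4 bp apart in the window below, where the capitals mark both summit bases.
PSMA2, chr7:42932442-42932471: tgcttcgaaactActgGgagcgactgctac

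c-MYC peaks were found at the promoters of 25 of the 50 genes in at least 1 of the 3 c-MYC lists (50%), against 31.7% of all protein-coding genes. In DMSO, 17 genes had a promoter peak (34.0%, against 24.2% of all genes). In AMG510 the number was 12 (24%, against 15.3%), and in trametinib 9 (18.0%, against 11.8%). None of the 50 had one in IgG, where 0.559% of all genes did. In each c-MYC list the share of proteasome genes was thus above that of all genes at this limit. The difference was not tested, and the lists share genes, so they do not count as separate observations. The same number of peaks from each list, the 5431 most significant, left 12 genes for DMSO, 11 for AMG510 and 9 for trametinib, against 18.1, 10.8 and 11.8% of all genes. The order of DMSO and AMG510 depended on the limit: with a fold enrichment above 5, AMG510 kept 9 genes, DMSO 7 and trametinib 5, against 5.75, 12.1 and 4.87% of all genes.

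**Figure D1:**
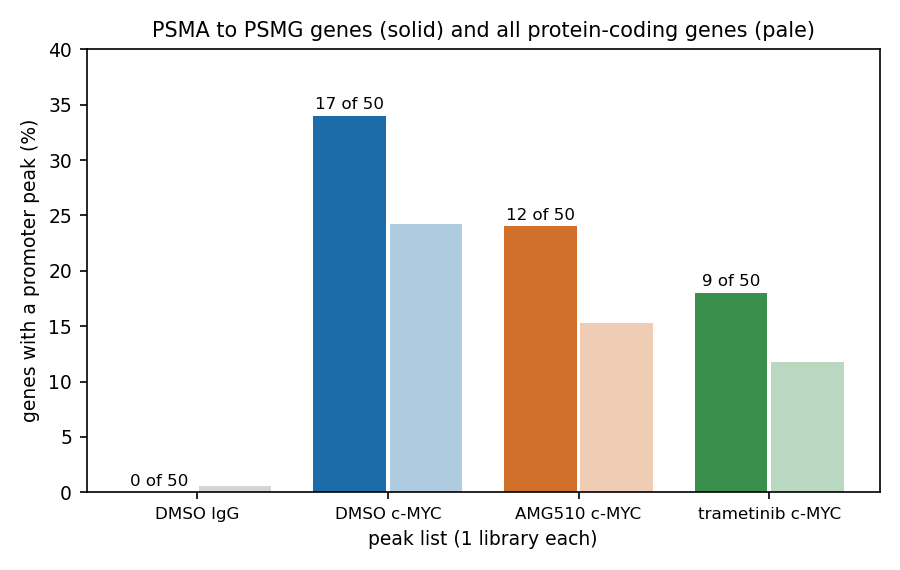
Share of genes with a promoter peak (%, vertical axis) in each of the 4 peak lists, with solid bars for the 50 genes named PSMA to PSMG and pale bars for all 19663 protein-coding genes. The solid bars stand at 34.0, 24 and 18.0% in the 3 c-MYC lists, above the pale bars at 24.2, 15.3 and 11.8%, and no gene of the group had a peak in IgG.

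By the parts of the proteasome, peaks were found at 5 of the 8 alpha ring genes and at 8 of the 11 non-ATPase genes of the regulatory particle in at least 1 c-MYC list, and at none of the 7 genes of the constitutive beta ring, beside 31.7% of all genes. These counts are small and were not tested. The 25 genes without a promoter peak in any list were PSMA4, PSMA5 and PSMA6, PSMB1 to PSMB9 and PSMB11, PSMC1, PSMC3, PSMC5 and PSMC6, PSMD2, PSMD4, PSMD5, PSMD10 and PSMD11, PSME2, PSMG3, and PSMC3IP.

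**Figure D2:**
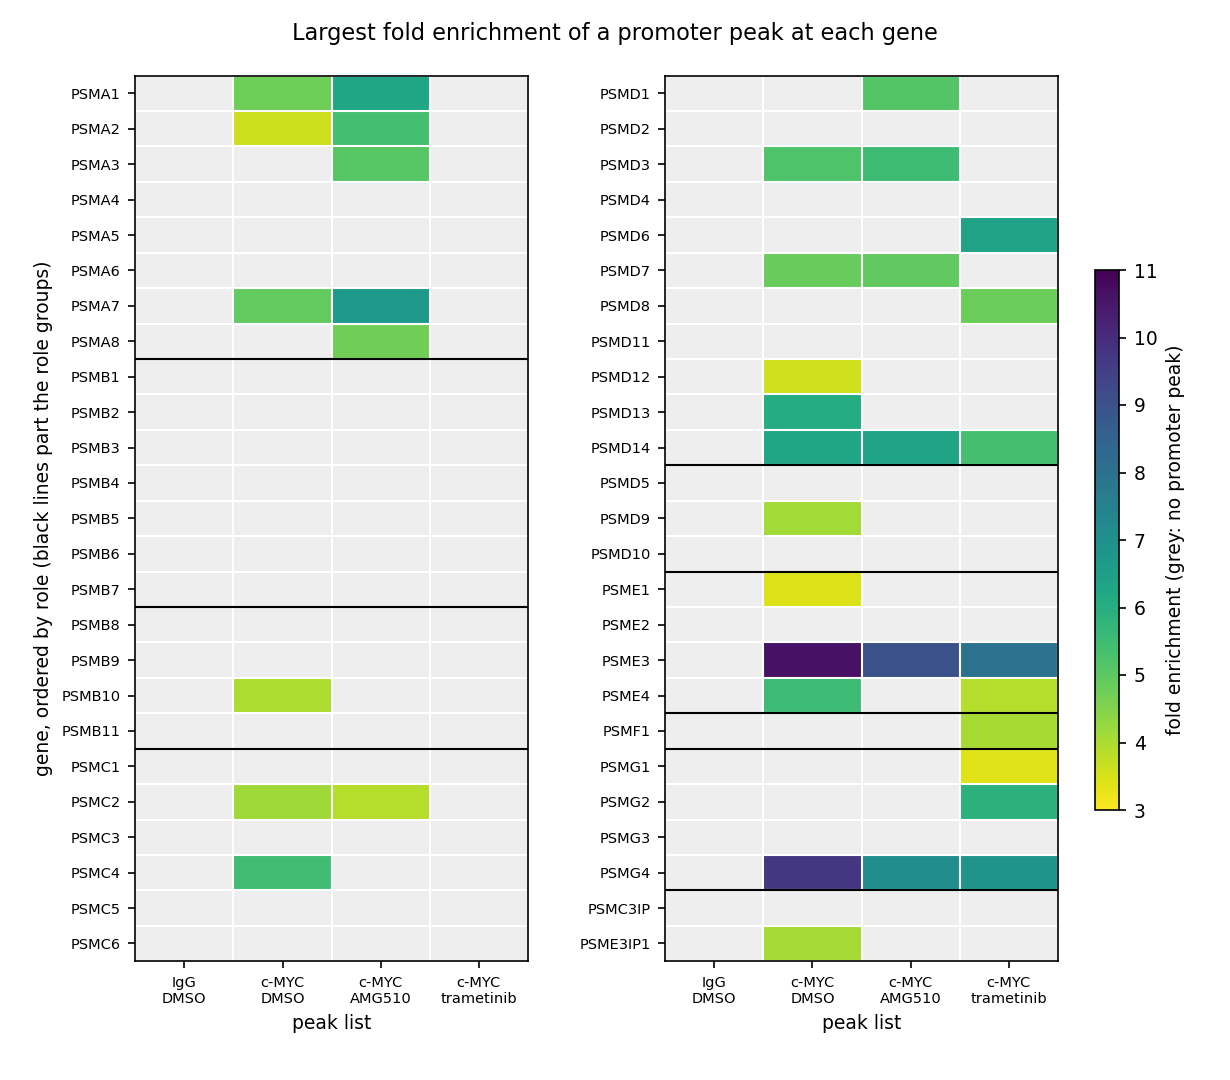
Fold enrichment (colour scale, from 3 to 11) of the largest promoter peak at each of the 50 genes, in rows by role, for the 4 peak lists in columns, with grey for no promoter peak. The IgG column and the rows of the beta ring are grey throughout, while PSME3, PSMG4 and PSMD14 carry a peak in all 3 c-MYC lists.

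The products of the alpha ring genes form the outer gates of the core. Of these 8 genes, 3 had a peak in DMSO, 5 in AMG510 and 0 in trametinib, beside 24.2, 15.3 and 11.8% of all genes. PSMA7 had 21 tags at its summit in DMSO (fold enrichment 4.92, chr20:62142748-62143131) and 20 in AMG510 (6.70, chr20:62143038-62143277), in intron 1 of the canonical transcript. The peaks shared 94 bp and their summits stood 146 bp apart. The DMSO summit also lay 760 bp from the start of SS18L1. PSMA2 had 12 tags in DMSO (3.61, chr7:42932282-42932604) and 14 in AMG510 (5.38, chr7:42932358-42932568), upstream of its TSS and 82 and 78 bp from the start of MRPL32, a gene of the mitochondrial ribosome. The fold enrichment was higher in AMG510 for both genes, while the tags lay within each other's counting intervals.

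PSMA1 counted as bound in DMSO and AMG510, but by peaks at different starts. The DMSO peak (chr11:14644041-14644229, 13 tags, fold enrichment 4.78) lay 123713 bp upstream of the canonical TSS, at the start of a longer transcript, and 268 bp from the start of PDE3B, a phosphodiesterase gene. The AMG510 peak (chr11:14520083-14520289, 15 tags, 6.26) lay in intron 1, 187 bp downstream of the canonical TSS. PSMA3 with 16 tags (5.09) and PSMA8 with 12 tags (4.74) had a promoter peak in AMG510 and in neither of the other c-MYC lists.

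The beta ring genes PSMB1 to PSMB7, which include those of the 3 catalytic subunits PSMB5, PSMB6 and PSMB7, were the largest group without any promoter peak. The summit closest to a start site of any of them was 3707 bp away, at PSMB3 in trametinib, and the farthest nearest summit was 73692 bp away, at PSMB2. Of the 4 beta subunits of the immunoproteasome and thymoproteasome, PSMB10 alone had a peak, in DMSO (chr16:67935962-67936226, 17 tags, 4.00). It lay in intron 3, 137 bp from the start of a shorter transcript and 728 bp into the gene from the canonical TSS. PSMB8 and PSMB9, which sit side by side with the antigen transporter gene TAP1, had none.

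Of the 6 ATPases, which form the unfolding ring of the regulatory particle, PSMC2 and PSMC4 had a promoter peak. PSMC4 had 21 tags in DMSO (5.46, chr19:39970627-39970953), 420 bp upstream of its TSS, with the summit beside the E-box shown above, and no peak in the drug lists. Its peak held the only canonical E-box within 100 bp of a summit among the 18 member peaks of DMSO. PSMC2 had 13 tags in DMSO (4.13, chr7:103344277-103344550) and 12 in AMG510 (3.88, chr7:103344532-103344688). Both summits lay over 3 kb upstream of the canonical TSS (3239 and 3054 bp), but 84 and 269 bp from another PSMC2 start. The start of the cochaperone gene DNAJC2 lay 184 and 1 bp from them. The 2 peaks shared only 19 bp.

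The non-ATPase subunits of the regulatory particle form its lid and the scaffold of its base. They had a promoter peak at 5 of 11 genes for DMSO, 4 for AMG510 and 3 for trametinib, beside 24.2, 15.3 and 11.8% of all genes. PSMD14, the deubiquitinase that cuts ubiquitin chains from the substrate, had a peak in all 3 c-MYC lists. It held 19 tags in DMSO (6.26, chr2:161308480-161308698), 19 in AMG510 (6.32, chr2:161308507-161308732) and 16 in trametinib (5.37, chr2:161308479-161308798). The 3 summits lay within 16 bp of each other, around the end of exon 1. The log2 ratio of tags to DMSO was −0.02 in AMG510 (95% counting interval −1.02 to 0.98) and −0.30 in trametinib (−1.35 to 0.74), so a change at this promoter was not detectable at this depth.

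PSMD3 and PSMD7, subunits of the lid, had peaks in DMSO and AMG510. PSMD3 had 16 tags in DMSO (5.21, chr17:39980880-39981147) and 15 in AMG510 (5.49, chr17:39980842-39981071), with summits 1 bp apart in the coding part of exon 1. PSMD7, the partner of PSMD14, had 15 tags in DMSO (4.87, chr16:74296888-74297109) and 13 in AMG510 (4.96, chr16:74296997-74297188), in intron 1 with summits 55 bp apart. Both counting intervals of the tag ratio held 0. PSMD13 (16 tags, 6.06, chr11:236070-236279) and PSMD12 (12 tags, 3.59), also lid subunits, had a peak in DMSO alone. The PSMD13 summit was the farthest of all member summits from a start of its own gene, at 791 bp upstream, and lay 141 bp from the start of SIRT3, a mitochondrial deacetylase gene. PSMD1, the scaffold of the base, had a peak in AMG510 alone (15 tags, fold enrichment 5.16). PSMD6 (15 tags, 6.40, chr3:64023255-64023470) and PSMD8 (14 tags, 4.81), both of the lid, had theirs in trametinib alone. The genes of this group therefore fell into different lists, with PSMD14 the one common to all.

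Of the 3 chaperones that assemble the base, PSMD9 had a peak, in DMSO (11 tags, 4.10), 11 bp from its TSS. PSMD5 and PSMD10 had none.

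The activators cap the core in place of the regulatory particle. Of these 4 genes, 3 had a peak in DMSO, 1 in AMG510 and 2 in trametinib, beside 24.2, 15.3 and 11.8% of all genes. PSME3 had the highest fold enrichment of all members in each c-MYC list. Its peak held 40 tags in DMSO (10.6, chr17:42833068-42833467), 29 in AMG510 (9.03, chr17:42833120-42833432) and 31 in trametinib (7.97, chr17:42833104-42833444). It ranked above 98.9, 99.1 and 97.2% of the peaks of those lists. The log2 tag ratio to DMSO was −0.48 in AMG510 (−1.22 to 0.24) and −0.42 in trametinib (−1.14 to 0.30), and neither interval left out 0. The start of BECN1, an autophagy gene that runs the other way, lay 101, 34 and 9 bp from these summits, so PSME3 and BECN1 share the peak and cannot be told apart as its target. A weaker DMSO peak (11 tags, 4.17, chr17:42823607-42823872) lay 9653 bp upstream of the canonical TSS, by the start of a longer transcript and 507 bp from another BECN1 start.

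PSME4, which encodes the activator PA200, had 16 tags in DMSO (5.50, chr2:53970615-53970892) and 11 in trametinib (3.89, chr2:53970642-53971218), in the coding part of exon 1. The start of ACYP2 lay 93 and 124 bp away. The log2 tag ratio was −0.59 with a counting interval of −1.84 to 0.61. PSME1 had 12 tags in DMSO (3.41), the lowest fold enrichment of the member peaks in that list, and PSME2, which encodes the partner of PSME1, had no peak. PSMF1, the inhibitor PI31, had a peak in trametinib alone, with 10 tags (4.06).

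The chaperones of the core, which build the alpha ring, had a peak at 1 of 4 genes for DMSO and for AMG510 and at 3 for trametinib. The shares of all genes were 24.2, 15.3 and 11.8%, and counts in so small a group were not tested. PSMG4 was bound in all 3 lists, with 42 tags in DMSO (9.70, chr6:3258977-3259381), 21 in AMG510 (7.09, chr6:3259158-3259367) and 21 in trametinib (6.87, chr6:3258965-3259325). It was the only member whose overlapping peaks had a tag ratio with an interval clear of 0. The log2 ratio to DMSO was −1.02 in AMG510 (−1.85 to −0.23) and −1.05 in trametinib (−1.88 to −0.26). Part of each ratio comes from the longer tag extension in DMSO, for which it was not adjusted. By fold enrichment it ranked 153 of 9552 peaks in DMSO, 254 of 10378 in AMG510 and 268 of 5431 in trametinib. Its summits moved by 90 and 130 bp from that of DMSO. PSMG2 (18 tags, 5.85, chr18:12703023-12703220), 364 bp from the start of CEP76, and PSMG1 (11 tags, 3.40) had a peak in trametinib alone. The nearest DMSO summit to a PSMG2 start was 1303 bp away, just outside the limit of 1 kb.

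Among the genes that carry the prefix alone, PSME3IP1 had a peak in DMSO (16 tags, 4.08), 467 bp from the start of RSPRY1, and PSMC3IP had none.

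Across the treatments, AMG510 and trametinib were each compared with the same DMSO library, so the comparisons are not independent and their values are set side by side. Of the 17 genes with a DMSO promoter peak, 9 also had one in AMG510 (52.9%), against 43.0% of all genes with a DMSO promoter peak. In trametinib 4 of 17 also had one (23.5%), against 35.2%. The 9 were PSMA1, PSMA2, PSMA7, PSMC2, PSMD3, PSMD7, PSMD14, PSME3 and PSMG4, and the 4 were PSMD14, PSME3, PSME4 and PSMG4. The alpha subunits, PSMC2, PSMD3 and PSMD7 were thus listed again in AMG510 and not in trametinib, while for PSME4 it was the reverse. PSMA1 was listed again by a peak at another start, which did not overlap that of DMSO. With the canonical TSS only, 7 of 15 genes with a DMSO promoter peak also had one in AMG510. The share of all genes was not computed under that rule. PSMD14, PSME3 and PSMG4 make up the members found in all 3 lists (6.0%, against 5.59% of all genes).

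Of the 17 genes with a DMSO promoter peak, 7 had none under either drug (41.2%), against 44.9% of all genes with a DMSO promoter peak. The 7 were PSMB10, PSMC4, PSMD9, PSMD12, PSMD13, PSME1 and PSME3IP1. Their DMSO summits held 11 to 21 tags. With the DMSO local background scaled to each drug library, a call at these sites would have needed 8 to 11 tags in AMG510 and 8 to 12 in trametinib. The lower 95% counting bounds of the DMSO tags fell under this limit in both lists for PSMB10, PSMD9, PSMD12, PSME1 and PSME3IP1 (5.49 to 9.90 tags). Those of PSMC4 (13.0) and PSMD13 (9.15) lay above it. The comparison leaves out the counting error of the drug libraries, and the 7 genes were picked by their DMSO call. A loss at PSMC4 or PSMD13 was therefore not shown and was not tested.

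Of the 33 genes without a DMSO promoter peak, 3 had one in AMG510 (9.09%, against 6.47% of all such genes) and 5 in trametinib (15.2%, against 4.33%). PSMA3, PSMA8 and PSMD1 were those of AMG510. PSMD6, PSMD8, PSMF1, PSMG1 and PSMG2 were those of trametinib. No member was new in both lists, and the share of all genes new in both was not computed. Their summits held 10 to 18 tags, as shallow as most peaks of the lists.

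**Figure D3:**
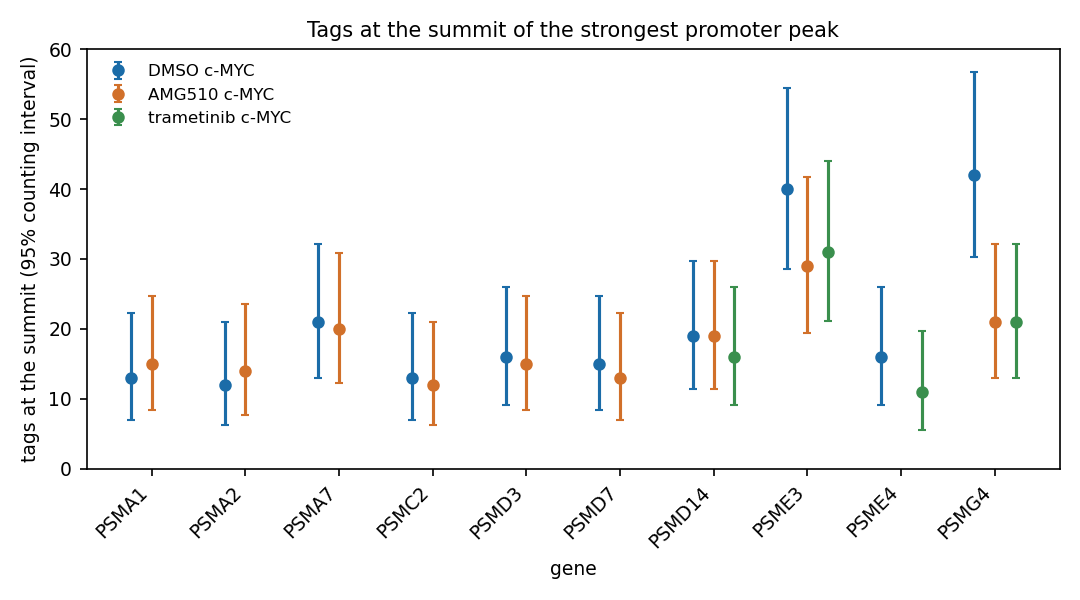
Tags at the summit of the promoter peak of highest fold enrichment (vertical axis, starting at 0) for the 10 genes with a peak in at least 2 c-MYC lists, with exact 95% counting intervals as bars and the lists in colour. PSMG4 had 42 tags in DMSO and 21 in each drug list, the widest gap shown, and the PSMA1 points belong to peaks at different starts.

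Of the 12 AMG510 member promoter peaks, 8 overlapped a DMSO peak (66.7%), against 55.2% of all AMG510 promoter peaks. In trametinib it was 4 of 9 (44.4%), against 61.0%. Of the 8 overlapping AMG510 pairs, the fold enrichment was higher in AMG510 for 5 and lower for 3, and in all 4 trametinib pairs it was lower than in DMSO. The fold enrichment is scaled to the local background of each library and does not follow the tags in every pair: PSMA7 had 21 and 20 tags at 4.92 and 6.70. The median fold enrichment of member peaks was 4.83 in DMSO, 5.43 in AMG510 and 5.37 in trametinib, beside 4.90, 4.65 and 4.71 over all promoter peaks. The median tags were 16, 15 and 15, beside 16, 13 and 14.

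The summits sat near the start sites, with median distances of 187, 183 and 44 bp in DMSO, AMG510 and trametinib. Downstream of the nearest TSS of the gene lay 11 of 18 summits in DMSO, 10 of 12 in AMG510 and 4 of 9 in trametinib. The bases around them had a median GC content of 68.2, 68.9 and 69.2%, lower than the 72.1, 71.6 and 71.6% of all promoter peaks by a few points.

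The start site of another protein-coding gene lay within 1 kb of the summit for 9 of 18 member peaks in DMSO (50%), 4 of 12 in AMG510 (33.3%) and 3 of 9 in trametinib (33.3%). Over all promoter peaks these shares were 13.6, 13.0 and 14.4%. The neighbours included MRPL32, SS18L1, DNAJC2, SIRT3, BECN1, ACYP2, RSPRY1, CEP76 and PDE3B. Without regard to binding, 13 of the 50 genes (26.0%) had another protein-coding start within 1 kb of their canonical TSS, against 15.8% of all genes. Of those 13, 7 had a promoter peak in at least 1 c-MYC list, and of the other 37, 18 did. A stricter rule, chosen after the data were seen, counted a peak only for the gene with the nearest start. DMSO then kept 13 of its 17 members, AMG510 9 of its 12 and trametinib 7 of its 9. Of the 13 kept for DMSO, 5 were also listed for AMG510, instead of 9 of 17. For trametinib it was 2, instead of 4. The shares of all genes were not computed under this rule, so these lower counts have no background beside them.

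**Figure D4:**
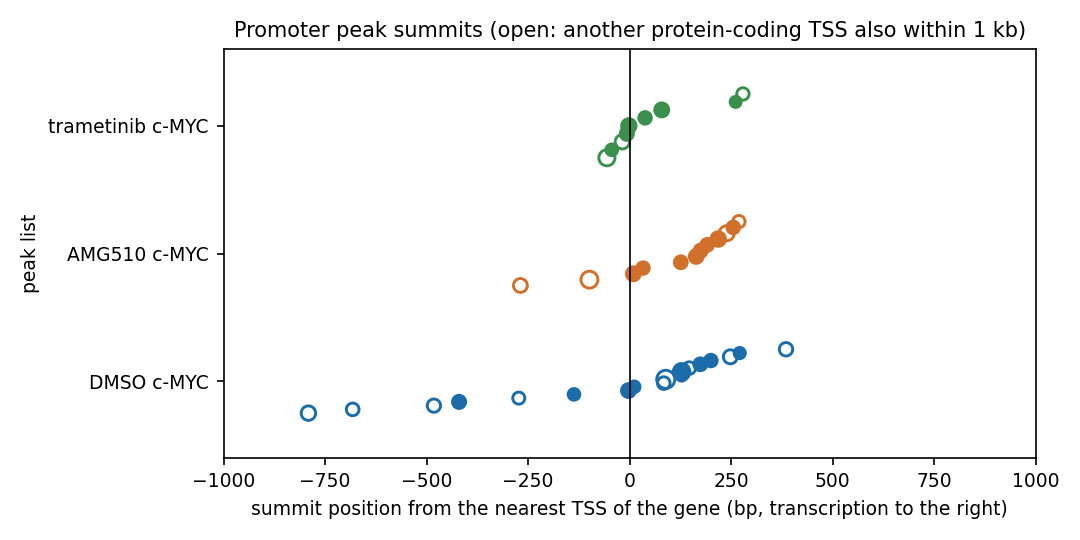
Position of each member promoter peak summit from the nearest TSS of its gene (bp, horizontal axis, transcription to the right) for the 3 c-MYC lists, with larger points for higher fold enrichment and open points where another protein-coding start also lies within 1 kb. In AMG510 10 of 12 summits lie to the right of the start, and 9 of the 18 DMSO points are open.

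The promoters were also read for motifs without regard to peaks, in RefSeq windows of 300 bases (250 before to 50 after the start, GRCh38.p14), which matched 44 of the 50 genes. The core of the antioxidant response element, TGACNNNGC on either strand, was present in 15 (34.1%), against 18.0% of 15307 promoters. The 15 were PSMA4, PSMB3, PSMB9, PSMC4, PSMC5, PSMD1, PSMD3, PSMD5, PSMD9, PSMD12, PSME1, PSME2, PSME4, PSMG1 and PSMG2. CACGTG was present in 4 (9.09%, against 11%), namely PSMB3, PSMD9, PSME3 and PSME3IP1, and CACGCG on either strand in 5 (11.4%, against 18.3%). CACGTG and CACGCG cannot lie at the same bases, TGACNNNGC may overlap either, and a match is a string in this window, not evidence of binding. The element core was found in 6 of the 16 matched genes with a DMSO promoter peak and in 9 of the 28 without, beside 20.7 and 17.1% of all promoters split the same way. CACGTG was found in 3 of the 16 and 1 of the 28, beside 16.8 and 8.97%.

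Other genes of the ubiquitin–proteasome pathway were followed as a list of 26, with a promoter peak at 15 of them in DMSO, at 14 in AMG510, at 9 in trametinib and at 1 in IgG, beside 24.2, 15.3, 11.8 and 0.559% of all genes. In at least 1 c-MYC list it was 21 of 26, against 25 of the 50 proteasome genes and 31.7% of all genes. Of the 15, 10 also had a promoter peak in AMG510 and 7 in trametinib, beside 43.0 and 35.2% of all genes with one in DMSO. The 6 in all 3 lists, where 5.59% of all genes were found, were AKIRIN2, which brings the proteasome into the nucleus, ECPAS, a scaffold that binds it, NFE2L2, RAD23B, UBQLN1 and RPS27A. RAD23B and UBQLN1 are shuttles that carry ubiquitinated substrates to the proteasome, RPS27A is a ubiquitin gene, and NFE2L2 is a transcription factor of the antioxidant response.

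RAD23B had the largest summit of this list, with 37 tags in DMSO (8.44), 19 in AMG510 (5.75) and 19 in trametinib (5.11). RPS27A had 27, 19 and 19 tags (7.38, 5.83 and 5.37). AKIRIN2 had 20, 12 and 19 tags (5.24, 4.05 and 5.70). ECPAS had 28 tags in DMSO, a pair of peaks with 18 each in AMG510 and 14 in trametinib. UBQLN1 had 16 tags in DMSO, 8 in AMG510, at another place, and 13 in trametinib. The peaks of RAD23B, RPS27A, ECPAS and AKIRIN2 overlapped that of DMSO in both drug lists. Their tags were fewer than in DMSO, by only 1 tag for AKIRIN2 in trametinib. The RAD23B summits of DMSO and AMG510 stood apart (chr9:107283917 and 107283534), as did those of ECPAS. No counting interval of a ratio was made for these genes. Among the proteasome genes in all 3 lists, tags were likewise fewer for PSMG4 and PSME3, though the PSME3 intervals held 0. PSMD14 had 19 tags in DMSO and in AMG510.

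NFE2L2 had a pair of DMSO peaks with 27 and 24 tags (6.89 and 8.05), a trametinib peak of 21 tags (6.57), and AMG510 peaks of 10 tags each at other positions. NFE2L1, the factor that drives proteasome genes, had a promoter peak in trametinib alone, with 23 tags (7.28), above 96.0% of that list. UBA1, the enzyme that activates ubiquitin, had 20 tags in DMSO and 14 in AMG510, and the ubiquitin ligase gene UBE3C 19 and 12. ZFAND5, which binds the proteasome, had 17 tags in DMSO and 13 in AMG510, in peaks that did not overlap. The shuttle gene UBQLN2 had 12 tags in DMSO and 11 in trametinib. Genes with a peak in AMG510 and not in DMSO included ADRM1, a ubiquitin receptor, PAAF1, a chaperone of the base, and UBB, a ubiquitin gene. The IgG peak belonged to SEM1, a small subunit of the lid, and had 10 tags 663 bp from the start of an alternative transcript, 212841 bp downstream of the canonical TSS.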

How the data were processed

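c-MYC or IgG ChIP-seq was done in MIA PaCa-2 cells, with 1 library per group, and groups were read from the sample titles. Per their methods, the authors trimmed the reads, aligned them to GRCh38, filtered them by mapping quality and for duplicates, called peaks for each library with MACS2 at default settings and removed regions of the ENCODE exclusion list. The submitters' processing notes name Trimmomatic 0.39, BWA 0.7.17, SAMtools 1.9, Picard, bedtools 2.27.1 and MACS2 2.2.7.1. Whether IgG served as the control in calling is not given in the sources used here. The deposited columns hold a score (10 times the −log10 q-value, as a whole number), the fold enrichment, a ratio of summit pileup to background, and, for each summit, its −log10 p-value and its −log10 q-value, all made by the authors.

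From these, the whole number of tags at each summit was solved from fold enrichment and p-value (100% of peaks, tolerance 0.01 in −log10 p), and the tags in calling from the most frequent background, the shortest peak width and a genome of 2700000000 bp. The code was tested on simulated data. Tag ratios were scaled to the tags in calling and not to the tag extension. The 95% intervals of tags and their ratios are exact for counting error only. These intervals are too narrow, since a fragment may enter as a pair of tags. Promoter peaks were assigned with GENCODE version 44 (summit within 1 kb of a protein-coding transcript's TSS), and overlap needed 1 bp. Positions in exons and introns refer to the canonical transcript, and bases were read from the GRCh38 reference. With 1 library per group no test was made, and shares over all genes or promoter peaks stand beside those of the members. The members and lists were chosen with earlier results of these data known. Full values were given for members in at least 2 c-MYC lists and for the 5 of highest fold enrichment in each c-MYC list. Other members were named after their values were seen, where they were few in their role group. Alternatives were the set of transcripts, the distance, stricter peak limits, equal peak numbers, peak edges, membership, motif window and overlap. What AMG510 targets and some genes of the pathway list are not reported here. Python 3.11.15, pandas 2.3.3, numpy 2.4.6 and scipy 1.17.1 were used.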

Additional observations from a re-analysis of the deposited data

Results flagged for a closer look

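PSMD14 stood out because its fold enrichment moved in opposite directions against the shared DMSO library, by 0.0129 on the log2 scale in AMG510 and by −0.22 in trametinib. Each group is 1 library and the difference was not tested. The AMG510 value is close to 0, and the tags at the summit were 19, 19 and 16 in DMSO, AMG510 and trametinib.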

How the results depend on the processing

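No paired analysis was possible because no group has more than 1 library, so leaving out a replicate could not be done either. Of 73 values under alternatives to 11 results, 60 stayed within 1.5 times a count or within the interval of a share, and 13 moved beyond it. Whether a result reversed was not scored. The interval of a share is wide at these peak numbers. The E-box share in DMSO was 5.56%, and 22.2% under an alternative still lay within its interval. In IgG, the count of 0 became 1 with every annotated transcript (PSMD9) and 1 at 2 kb from the TSS (PSMD2). A score above 60 kept 6 genes for DMSO, 5 for AMG510 and 4 for trametinib, against 9.81, 2.98 and 2.93% of all genes. Of these DMSO genes, 4 were also in AMG510 and 2 in trametinib. A fold enrichment above 5 left 7 in DMSO, 5 in trametinib and 4 shared by DMSO and AMG510. The shares of all genes for these overlaps between lists were not computed at either limit. Counting a peak only for the gene with the nearest start, an alternative added after seeing the data, left 13 genes for DMSO. Of these, 5 were shared with AMG510 and 2 with trametinib, and the shares of all genes were not computed for this alternative. Within 50 bp of the summit the E-box share in AMG510 was 0.0%. Within 250 bp the share in DMSO was 22.2% (4 of 18), and the share over all promoter peaks was not computed at that window. The stricter settings leave fewer peaks by construction. Depth limits all counts: most member summits held 10 to 21 tags where a call needed about 8 to 12, so presence or absence in 1 list can turn on a few tags. The lists carry nothing under the caller's limit, so the change at a promoter listed once cannot be given.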

Other observations

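Peaks inside the genes but away from promoters were few. IgG had 5 in 5 genes, with at most 12 tags, DMSO c-MYC 3 in 2 genes with at most 14, AMG510 2 and trametinib 1. PSMB7, a catalytic beta subunit without a promoter peak, had a pair of intronic DMSO peaks, of 12 tags in intron 6 and 14 tags in intron 5, and the latter held a CACGTG within 100 bp of its summit. The lists differ in size, and the shares over all genes or all peaks were not computed. These counts were therefore not compared between lists.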
